A study of Homo sapiens with 4 samples.

Results

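TXNDC5 and 9 other genes of the protein disulfide isomerase family were followed in NCI-H520, an established cell line of lung squamous cell carcinoma, with and without the agent Hx1R8. The 10 genes were taken by name from the 28277 genes of the deposited count table: TXNDC5, P4HB, PDIA3, PDIA4, PDIA5, PDIA6, ERP44, ERP29, TXNDC12 and TMX1. TXNDC5 was chosen by its higher counts after Hx1R8 in these same libraries, and the other 9 were added by family, so for TXNDC5 the difference is given as a description with no test. RNA was sequenced from 2 libraries of cells given 10 µM Hx1R8 for 12 h and from 2 libraries of cells given ultrapure water (Vehicle). All 4 came from cells labelled wild type and grown with 15% fetal bovine serum. The labels do not say what Hx1R8 consists of. The series title concerns SOX2 self-association and drug resistance, and the question addressed here is how these genes stand in treated against control cells.

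The protein disulfide isomerases are enzymes and chaperones of the endoplasmic reticulum that form, break and rearrange the disulfide bonds of proteins on their way to the membrane or out of the cell. Most carry thioredoxin-like domains with a pair of cysteines at the active site, which accept electrons from the client protein and pass them to oxidases such as ERO1A. Many family genes belong to the unfolded protein response, the programme that raises folding capacity when unfolded protein builds up.

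Total counts were 17259403 and 20920857 in Hx1R8 replicates 1 and 2 and 17483349 and 17352323 in Vehicle replicates 1 and 2. Levels are given as CPM, counts of a gene per 1000000 counts of its library. Of 6 squamous markers, SOX2 was abundant, at 522 and 498 CPM in Hx1R8 and 541 and 515 CPM in Vehicle, and KRT6A was at 17.8 and 17.1 CPM in Hx1R8 and 19.9 and 19.7 CPM in Vehicle (log2 fold change -0.18, SE 0.09, edgeR adjusted p = 0.9999). Both Hx1R8 values of KRT6A were below both Vehicle values, at an unadjusted edgeR p of 0.045. KRT5 was at 1.16 and 1.91 CPM in Hx1R8 and 1.43 and 1.91 CPM in Vehicle, TP63 stayed under 0.72 CPM, and KRT14 and DSG3 had 0 reads. The 2 Vehicle libraries stood further apart from each other than any Hx1R8 library from any Vehicle library (chi-square per gene 2.95, against at most 2.43). Of 20 markers of other cell types, 15 were below 1 CPM in all libraries. Their summed level was 48.2 and 50.3 CPM in Hx1R8 and 49.0 and 44.9 CPM in Vehicle, and its part in the results was not tested. The plasma cell marker JCHAIN had 0 reads in all 4 libraries, and MZB1 had 0 reads in all but Hx1R8 replicate 1.

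What the count of TXNDC5 covers differs from that of the other members. TXNDC5, also called endoPDI, lies on the reverse strand of chromosome 6 (7881514 to 7910788, hg38), and 2666 of its 3206 exon bases, 83.2%, also belong to the read-through gene BLOC1S5-TXNDC5. The 540 bases that belong to no other listed gene form 2 exons at its 5′ end. They lie at 7910514 to 7910788 (275 bases) and at 7909813 to 7910077 (265 bases). In GENCODE v29 these are the first exons of different transcripts: the upstream one holds 263 coding bases and the downstream one holds none. BMP6, on the opposite strand, shares 215 bases at the 3′ end of TXNDC5, which BLOC1S5-TXNDC5 holds as well.

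**Figure D1:**
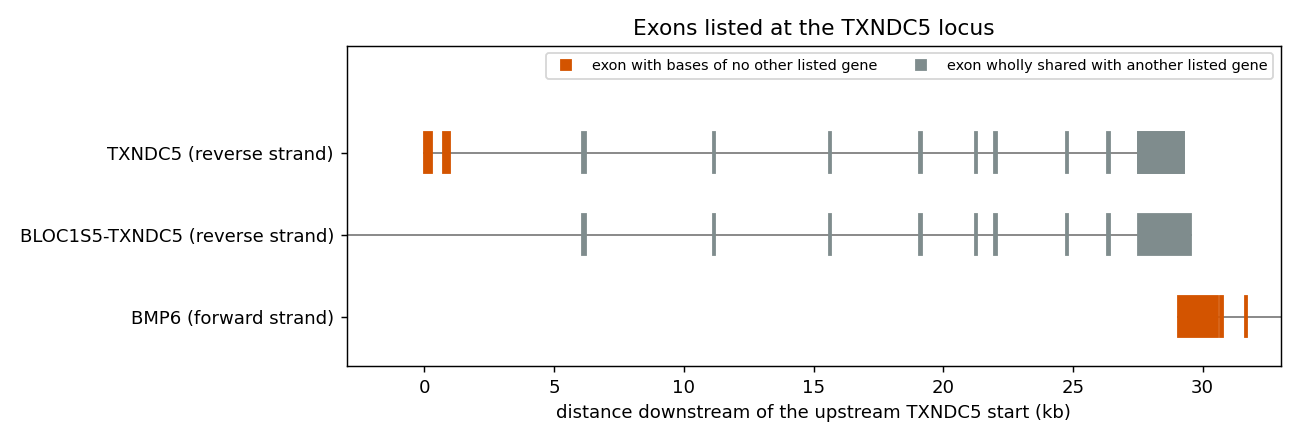
Exons listed in the deposited table at the TXNDC5 locus, by distance in kb downstream of the upstream TXNDC5 start. Orange exons hold bases of no other listed gene and grey exons are wholly shared; of the TXNDC5 exons, only the 2 at the 5′ end are orange.

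Reads on shared exons were, with few exceptions, missing from the table. Of 365 genes with at least 1000 exon bases, all of them shared with other genes on the same strand, 338 had 0 reads over the 4 libraries together, and 97.5% had at most 10. The highest of the 365 had 84, against 435 for TXNDC5. Among 18469 genes of that size with at least 95% unshared bases, 29.1% had at most 10 reads, and the median was 356. Of 16 genes wholly shared only when both strands are counted, 15 had 0 reads. The read-through gene itself had 0 and 2 reads in Hx1R8 and 0 and 0 in Vehicle. The TXNDC5 count is therefore read here as one of its alternative first exons, not of the whole transcript. Which of both first exons gave the reads cannot be told from a count per gene. BLOC1S5, whose exons are shared except for 103 bases, had 0 reads in both Hx1R8 libraries and 1 and 0 reads in Vehicle.

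Because the counted bases are the alternative first exons, the 250 bases before each of both starts are shown. They come from RefSeq (GRCh38.p14), read on the reverse strand, and capitals mark the letters TGACGTGG, the unfolded protein response element bound by XBP1 and ATF6. The first window is chr6:7910789-7911038, before the upstream start, and the second is chr6:7910078-7910327, before the downstream start.
upstream start: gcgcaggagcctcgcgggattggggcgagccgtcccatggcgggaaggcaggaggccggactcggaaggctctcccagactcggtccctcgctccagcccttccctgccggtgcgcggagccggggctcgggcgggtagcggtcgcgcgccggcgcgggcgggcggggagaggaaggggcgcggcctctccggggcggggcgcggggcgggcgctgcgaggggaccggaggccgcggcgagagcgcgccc
downstream start: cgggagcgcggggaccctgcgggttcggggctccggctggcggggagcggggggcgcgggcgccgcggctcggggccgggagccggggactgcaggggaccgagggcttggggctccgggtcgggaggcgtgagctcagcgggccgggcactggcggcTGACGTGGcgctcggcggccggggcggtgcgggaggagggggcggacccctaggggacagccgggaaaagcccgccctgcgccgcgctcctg

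The windows differ in this motif. The upstream window held none of the motifs searched, and the downstream window held TGACGTGG at 7910162 to 7910169. Searched on both strands, TGACGTGG was present in 0.729% of 35116 RefSeq promoter windows of 300 bases (250 before the start and 50 after it). Both TXNDC5 windows printed were rich in G and C, at 80.8% before the upstream start and 82.0% before the downstream start.

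Of the 10 genes, 9 had a RefSeq promoter window, 13 windows in all. The ER stress element, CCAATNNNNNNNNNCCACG, is the site of ATF6 with NF-Y in promoters of ER chaperone genes. It was present in 0.0769% of all windows and in 1 of the 13, that of PDIA6 at chr2:10812853-10812871. HSPA5, the gene of the chaperone BiP and the textbook carrier of this element, had it at chr9:125241391-125241409. The element is shown for both, with the fixed letters in capitals, on the reverse strand as the genes are read.
PDIA6: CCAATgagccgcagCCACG
HSPA5: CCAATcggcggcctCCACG

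The second ER stress element, ATTGGNCCACG, was present in 0.0541% of all windows and in 0 of the 13. The SOX motif CATTGTN, which overlaps none of the others, was in 10.8% of all windows and in 0 of the 13. A match is only one of letters, and its absence speaks of these windows alone.

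TXNDC5 was the member whose level stood apart between the groups. Its reads numbered 138 and 205 in Hx1R8 replicates 1 and 2, against 48 and 44 in Vehicle replicates 1 and 2. In CPM this was 8.02 and 9.78 in Hx1R8, with exact 95% Poisson intervals of 6.73 to 9.47 and 8.49 to 11.2, against 2.74 and 2.54 in Vehicle, with intervals of 2.02 to 3.64 and 1.85 to 3.42. The intervals cover counting error only. Both Hx1R8 libraries lay above both Vehicle libraries, with the lowest Hx1R8 value 2.92 times the highest Vehicle value.

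The means were 8.90 ± 1.25 CPM in Hx1R8 and 2.64 ± 0.14 CPM in Vehicle (SD, n = 2 each). Within groups, Hx1R8 replicate 2 was 1.22 times replicate 1 and Vehicle replicate 1 was 1.08 times replicate 2. The fitted fold was 3.38, with a 95% interval of 2.63 to 4.35 (log2 fold change 1.76, SE 0.18). In size of log2 fold change it stood second from the top among 14482 tested genes, with 1 gene above it. These values led to the choice of TXNDC5 and are not a test of it. The libraries are bulk RNA, in which more cells with a transcript and more transcript per cell cannot be told apart.

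**Figure D2:**
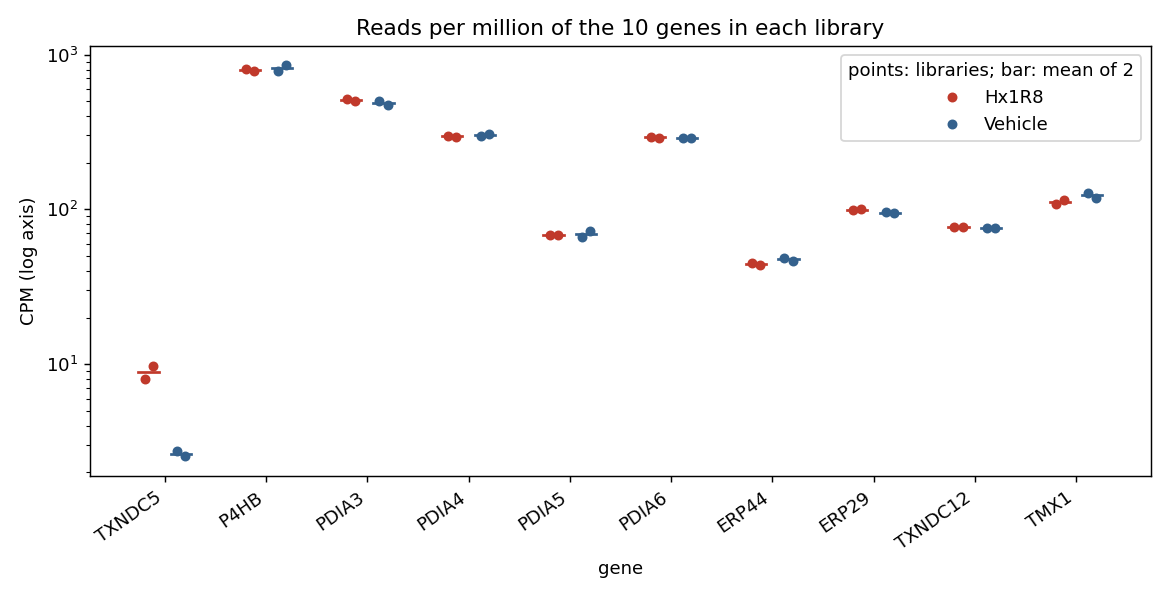
CPM on a log axis for each of the 10 genes, with Hx1R8 libraries in red, Vehicle libraries in blue and a bar at the mean of 2 libraries. TXNDC5 lies at 8.02 and 9.78 CPM in Hx1R8 against 2.74 and 2.54 CPM in Vehicle, while the points of the other genes nearly coincide.

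None of the other 9 members changed by the test. All 10 members passed the filter on low counts, and 1 of the 10, TXNDC5, was past an adjusted p of 0.05 in edgeR's quasi-likelihood test, where 0.0207% of the 14482 tested genes were called in either direction. Since the choice of TXNDC5 used this contrast, nothing is read from that count. The other 9 had adjusted p of 0.9999, and 1 of them, TMX1, had an unadjusted p under 0.05, as did 3.39% of all tested genes. DESeq2 and limma-voom also called 0 of the 9. Their log2 fold changes ran from -0.13 to 0.06 with a median of -0.01, against a median of -0.0018 over all tested genes. Of the 9, 4 lay above 0 and 5 below.

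The 95% intervals bounded all 9 within 1.2-fold of no change, from a lowest bound of 0.847 to a highest of 1.12. The log2 fold change of TXNDC5 was 1.77 above the median of the 9, a description, since it was chosen for its difference. Summed over the 9, the level was 2305 and 2276 CPM in Hx1R8 and 2291 and 2322 CPM in Vehicle. For each 1000 reads of these 9 genes, TXNDC5 had 3.48 and 4.30 in Hx1R8 against 1.20 and 1.10 in Vehicle.

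**Figure D3:**
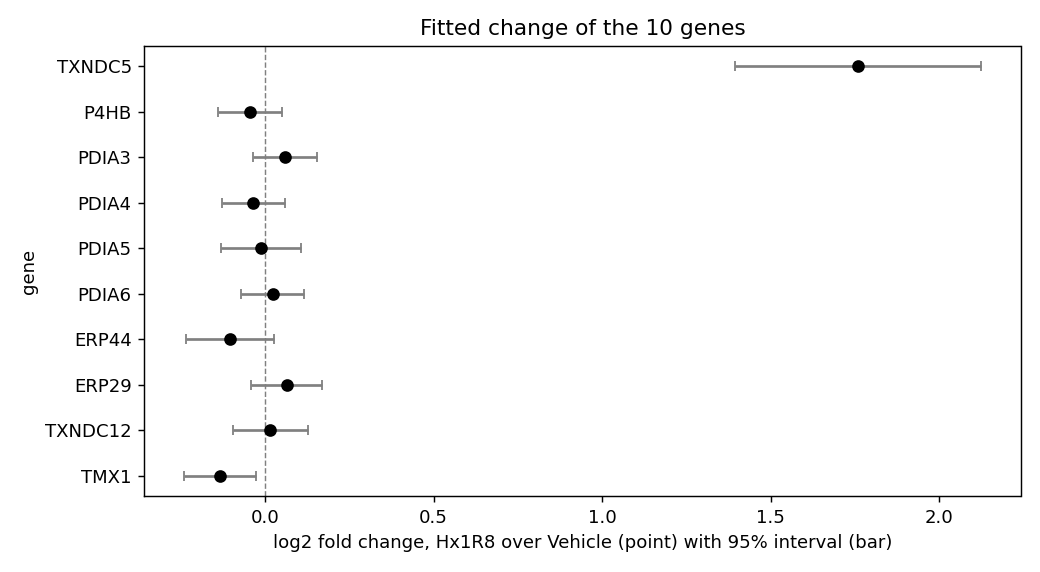
Log2 fold change of Hx1R8 over Vehicle (points) with 95% intervals from the fit (bars) for the 10 genes. TXNDC5 is at 1.76, and the intervals of the other 9 lie between 0.847-fold and 1.12-fold.

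The most abundant members, P4HB, PDIA3, PDIA4 and PDIA6, were catalytic isomerases of the lumen. P4HB, the founding protein disulfide isomerase and the beta subunit of collagen prolyl 4-hydroxylase (chromosome 17, 81843166 to 81860535), was at 800 and 788 CPM in Hx1R8 and 788 and 850 CPM in Vehicle. The groups overlapped, since Vehicle replicate 1 was no higher than the Hx1R8 libraries, and the fold was 0.970 (95% interval 0.909 to 1.04). PDIA3, which folds glycoproteins held by calnexin and calreticulin (chromosome 15, 43746438 to 43773278), was at 516 and 498 CPM in Hx1R8 and 504 and 468 CPM in Vehicle. These also overlapped, with Vehicle replicate 2 the lowest, and the fold was 1.04 (0.976 to 1.11). PDIA3 shares 605 exon bases with ELL3 on the opposite strand.

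PDIA4, an isomerase that works in chaperone complexes with BiP (chromosome 7, 149003051 to 149028505), was at 298 and 295 CPM in Hx1R8 and 298 and 308 CPM in Vehicle. Both Hx1R8 libraries lay below both Vehicle libraries, but the nearest pair differed by under 1 CPM and the fold was 0.977 (0.915 to 1.04). PDIA6, which also limits signalling of the stress sensor IRE1 (chromosome 2, 10783391 to 10837712), was at 294 and 291 CPM in Hx1R8 and 287 and 289 CPM in Vehicle. Its Hx1R8 libraries lay above its Vehicle libraries by a small step, with a fold of 1.02 (0.952 to 1.08). PDIA6 shares 1033 of its 3213 exon bases with ATP6V1C2 on the opposite strand, which leaves 67.8% unshared when both strands are counted. Had reads been counted by strand, all 3213 would be its own, and the strand setting is not given. PDIA5, a less abundant isomerase (chromosome 3, 123067025 to 123162104), was at 68.3 CPM in both Hx1R8 libraries, inside the 65.8 and 71.9 CPM of Vehicle. Its fold was 0.991 (0.913 to 1.08).

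The remaining members also differed little between the groups, with TMX1 furthest from no change. ERP44, which retrieves ERO1 oxidases and unfinished proteins from the Golgi (chromosome 9, 99979188 to 100099000), was at 44.8 and 43.5 CPM in Hx1R8 and 48.2 and 46.7 CPM in Vehicle. Both Hx1R8 libraries were lower, with a fold of 0.930 (0.850 to 1.02). ERP29, a chaperone without the active-site cysteine pair (chromosome 12, 112013348 to 112023449), was at 98.5 and 100.2 CPM in Hx1R8 and 95.6 and 94.5 CPM in Vehicle. Both Hx1R8 libraries were higher, with a fold of 1.05 (0.972 to 1.12).

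TXNDC12, a small thioredoxin-like protein of the lumen (chromosome 1, 52020132 to 52056171), was at 76.7 and 77.0 CPM in Hx1R8 and 76.0 and 76.1 CPM in Vehicle. All 4 libraries were within about 1 CPM of each other, and the fold was 1.01 (0.936 to 1.09). TXNDC12 shares 1708 exon bases with KTI12, which leaves 60.7% of its own for the count. TMX1, a transmembrane isomerase of the ER membrane (chromosome 14, 51240247 to 51257654), was at 108.9 and 115.0 CPM in Hx1R8 and 127.9 and 118.0 CPM in Vehicle. Both Hx1R8 libraries were lower, and the fold of 0.912 (0.847 to 0.981) had an interval below 1, with an unadjusted p of 0.015 in edgeR's quasi-likelihood test that did not hold over all genes (adjusted p = 0.9999). Without Vehicle replicate 2, TMX1 was past the threshold at a log2 fold change of -0.19 (adjusted p = 0.034, within a range of 0.034 to 0.9999 over its alternatives).

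Of the other 9 members, 3 (PDIA6, ERP29 and TXNDC12) had both Hx1R8 libraries above both Vehicle libraries, as did 14.7% of all tested genes. Another 3 (PDIA4, ERP44 and TMX1) had both below, as did 15.2% of all tested genes. In the remaining 3 the groups overlapped.

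Set per kb of unshared exon, the order of levels over the 4 libraries was P4HB, PDIA3, PDIA6, PDIA4, ERP29 and PDIA5, followed by TMX1 and TXNDC12, whose ranges overlapped. The range was 323 to 349 CPM per kb for P4HB, 152 to 168 for PDIA3, 132 to 135 for PDIA6, 91.9 to 96.2 for PDIA4, 55.5 to 58.9 for ERP29 and 35.7 to 39.0 for PDIA5. TMX1 ran from 27.1 to 31.8 and TXNDC12 from 28.8 to 29.2 CPM per kb. At the foot of the order, with TXNDC5 set on its 540 unshared bases, TXNDC5 and ERP44 stood differently in the groups. TXNDC5 was at 14.8 and 18.1 CPM per kb of unshared exon in Hx1R8, above the 9.33 and 9.06 of ERP44 there. In Vehicle TXNDC5 was at 5.08 and 4.71 CPM per kb, below the 10.0 and 9.72 of ERP44. The 540 bases add up alternative first exons of 275 and 265 bases, and a transcript starting at either holds only that exon. These values may therefore understate TXNDC5, and its place below ERP44 in Vehicle is not settled. Set on all its 3206 exon bases, TXNDC5 averaged 2.78 CPM per kb in Hx1R8 and 0.825 in Vehicle, the lowest of the 10 in both groups. That length takes in the 2666 shared bases, whose reads are read here as missing, which lowers the value further. Its level relative to the others thus depends on the length used, while its fold does not. Other places in the order depend on the length too. On all exon bases PDIA6 averaged 91.0 CPM per kb in Hx1R8 and 89.5 in Vehicle, below the 92.4 and 94.6 of PDIA4. TXNDC12 averaged 17.7 in Hx1R8 and 17.5 in Vehicle, below the 27.8 and 30.5 of TMX1.

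With each library left out in turn, the log2 fold change of TXNDC5, again as a description of the values it was chosen by, ran from 1.597 without Hx1R8 replicate 2 to 1.89 without Hx1R8 replicate 1. P4HB ran from -0.10 to 0.01 and PDIA5 from -0.08 to 0.05 in the same settings, both turning sign without Vehicle replicate 2. The other 7 kept their sign.

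**Figure D4:**
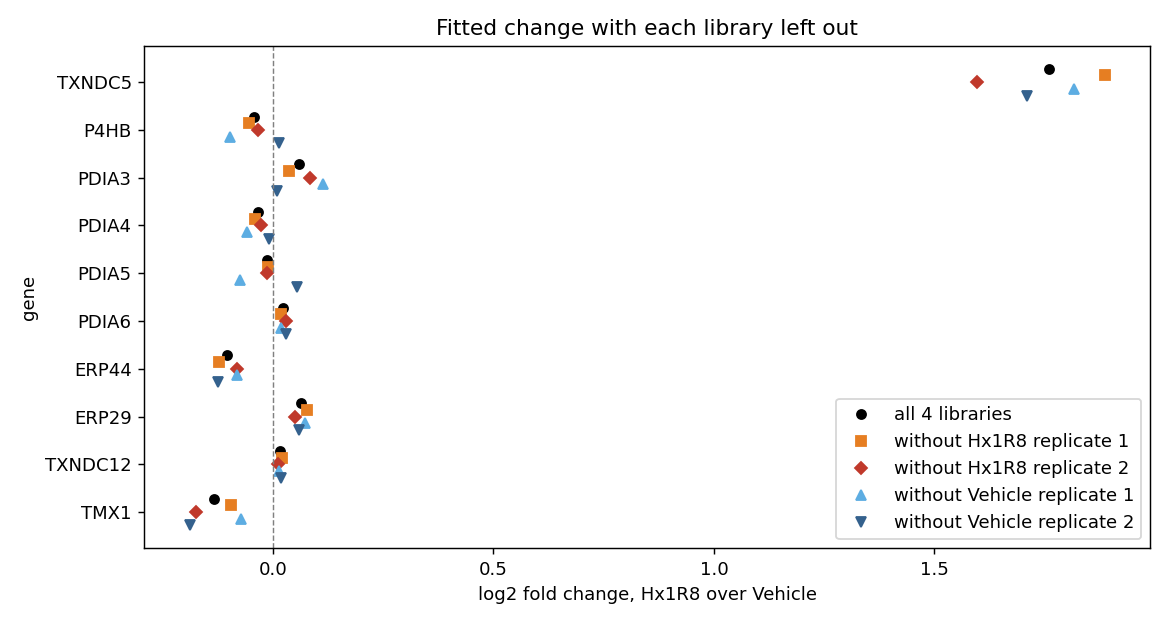
Log2 fold change of Hx1R8 over Vehicle for the 10 genes, from all 4 libraries (black) and with each library left out (coloured symbols). TXNDC5 spans 1.597 to 1.89, while each of the other genes stays between -0.19 and 0.11.

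Related genes were described from 6 lists, and DESeq2 and limma-voom, like edgeR, called 0 of their members. With so few genes called over the whole table, 0 calls in a list say little about its members. The PDI-like genes outside the 10 had 0 members past the threshold, against 0.0207% of all tested genes. Those with an unadjusted edgeR p under 0.05 numbered 0, against 3.39% of all tested genes. Of 16 listed, 10 were tested, 8 with log2 fold changes above 0 and 2 below, with a median of 0.02. TMX2, a transmembrane relative and the most abundant, was at 178 CPM in both Hx1R8 libraries and 176 and 173 CPM in Vehicle (log2 0.03, SE 0.05). DNAJC10, a disulfide reductase that helps degrade misfolded proteins, was at 179 and 162 CPM in Hx1R8 and 181 and 158 CPM in Vehicle (log2 0.01, SE 0.05). Its replicates differed more than its groups. The extremes were TXNDC16 at -0.06 (SE 0.07) and PDIA2, a pancreatic isomerase under 1 CPM here, at 0.73 (SE 0.57).

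The oxidative folding list holds oxidases, peroxidases and vitamin K reductases together with the nucleotide exchange factor SIL1 and some ER selenoproteins. Of its 11 tested genes, 0 were past the threshold, against 0.0207% of all tested genes. Those with an unadjusted edgeR p under 0.05 numbered 0, against 3.39% of all tested genes. Of the 11, 5 lay above 0 and 6 below, with a median of -0.0067. All 11 were bounded within 1.5-fold. QSOX2 and QSOX1, sulfhydryl oxidases, were at -0.0067 (SE 0.05) and -0.04 (SE 0.05) on the log2 scale. SELENOK had the highest value at 0.07 (SE 0.08) and SELENON, a selenoprotein of the ER membrane, the lowest at -0.10 (SE 0.06).

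Partners that share subunits or clients with these isomerases had 0 of 13 tested genes past the threshold, against 0.0207% of all tested genes. Those with an unadjusted edgeR p under 0.05 numbered 0, against 3.39% of all tested genes. Of the 13, 5 lay above 0 and 8 below, and all 13 were bounded within 1.5-fold. The lectin chaperone CANX was at 1979 and 1938 CPM in Hx1R8 and 1946 and 1924 CPM in Vehicle (log2 0.02, SE 0.05). GANAB, the catalytic subunit of glucosidase II, was at 848 and 850 CPM in Hx1R8 and 814 and 896 CPM in Vehicle (log2 -0.01, SE 0.05). In both genes the groups overlapped. UGGT1, the glycoprotein folding sensor, was highest at 0.05 (SE 0.05) and CNPY4 lowest at -0.10 (SE 0.11).

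ER chaperones and unfolded protein response genes had 0 of 42 tested members past the threshold, against 0.0207% of all tested genes. Those with an unadjusted edgeR p under 0.05 numbered 0, against 3.39% of all tested genes. Of the 42, 20 lay above 0 and 22 below, with a median of -0.0039 and 40 bounded within 1.5-fold. HSPA5 was at 593 and 587 CPM in Hx1R8 and 581 and 564 CPM in Vehicle (log2 0.04, SE 0.05). HSP90B1, the ER member of the HSP90 family, was at 970 and 941 CPM in Hx1R8 and 955 and 897 CPM in Vehicle (log2 0.05, SE 0.05). The extremes were genes of ER-associated degradation with few reads, DERL3 at 0.47 (SE 0.38) and EDEM2 at -0.42 (SE 0.44). Both were under 1.2 CPM in every library, and whether they share exons with other genes was not examined. Summed over the 43 listed genes, the level was 5743 and 5675 CPM in Hx1R8 and 5687 and 5672 CPM in Vehicle.

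The thioredoxin systems of the cytosol and mitochondria had 0 of 22 tested genes past the threshold, against 0.0207% of all tested genes. Of the 22, 10 lay above 0 and 12 below. An unadjusted edgeR p under 0.05 was found for 2 of the 22, against 3.39% of all tested genes. GLRX5, a mitochondrial glutaredoxin of iron-sulfur cluster assembly, was at 87.6 and 83.8 CPM in Hx1R8 and 72.1 and 76.3 CPM in Vehicle, with a log2 fold change of 0.21 (SE 0.06). Both Hx1R8 libraries were higher, and edgeR's adjusted p was 0.82. TXNDC17, a cytosolic thioredoxin-like protein, had the lowest value at -0.23 (SE 0.10). PRDX1, the most abundant peroxiredoxin, was at 3107 and 3074 CPM in Hx1R8 and 3114 and 2687 CPM in Vehicle (log2 0.09, SE 0.05). Vehicle replicate 2 was the low library, and without Vehicle replicate 1 PRDX1 passed at 0.20. TXNRD1, the cytosolic thioredoxin reductase, was at 0.0029 (SE 0.05).

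**Figure D5:**
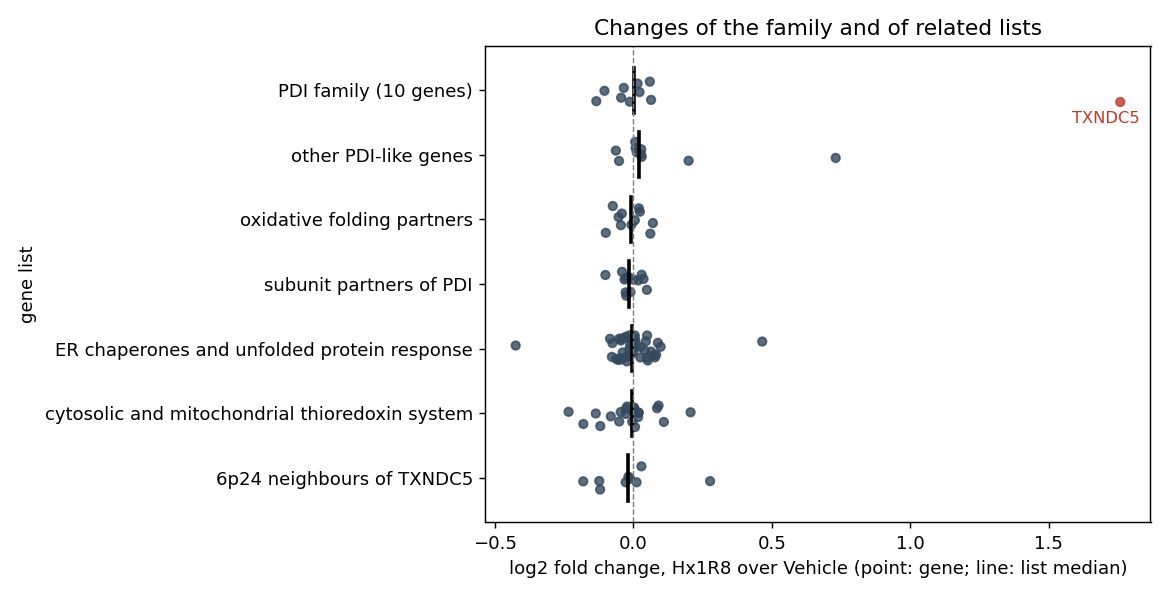
Log2 fold change of Hx1R8 over Vehicle for the tested genes of the family and of 6 related lists, 1 point per gene, with a line at each list's median. TXNDC5 (red) is at 1.76, and the next highest point is PDIA2 at 0.73.

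The genes around TXNDC5 on 6p24 had 0 of 9 tested members past the threshold, against 0.0207% of all tested genes. Those with an unadjusted edgeR p under 0.05 numbered 0, against 3.39% of all tested genes. Of the 9, 3 lay above 0 and 6 below, with a median of -0.02. BMP6, which overlaps the 3′ end of TXNDC5 on the opposite strand, had 109 and 152 reads in Hx1R8 against 101 and 95 in Vehicle, or 6.33 and 7.25 CPM against 5.77 and 5.49 CPM. Both Hx1R8 libraries were higher, and the log2 fold change of 0.28 (SE 0.15) did not pass the test. EEF1E1, a neighbour upstream on the same strand, was at 16.6 and 16.04 CPM in Hx1R8 and 19.8 and 17.1 CPM in Vehicle (log2 -0.18, SE 0.09). The read-through gene EEF1E1-BLOC1S5 had 0 reads in all 4 libraries. BLOC1S5, BLOC1S5-TXNDC5, EEF1E1-BLOC1S5 and CAGE1 were too low to be tested.

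The genes whose pattern was nearest to that of TXNDC5 were LRP12, XDH, SEMA6A-AS2, METTL27 and LAMA1. Likeness was the Euclidean distance between log2 CPM values centred over the 4 libraries, ranked over 13404 genes with a mean of at least 1 CPM. The distances ran from 0.829 for LRP12 to 1.06 for LAMA1, against 1.72 between TXNDC5 and a gene with the same level in all 4 libraries. LRP12 was at 1.97 and 2.34 CPM in Hx1R8 and 1.14 and 1.10 CPM in Vehicle, and the log2 fold changes of the 5 ran from 0.72 to 0.98, all below that of TXNDC5. None of the 5 passed the test, and having been picked for their likeness they are given as a description.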

How the data were processed

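The authors deposited a table of raw read counts per gene, 1 column per library, with exon coordinates per the file headers. Per the submitters' processing notes, STAR 2.7.9 and hg38 were used; the sources used here do not give the counter, the annotation or the strand setting. Per the labels' protocols, 1.5 µg of TRIzol-extracted RNA went into each library. A broken row on 2 lines was left out, which left 28277 genes. Counts were tested with edgeR 4.0.16 (R 4.3.3) using its two-sided quasi-likelihood test, with group alone in the model, after filterByExpr and TMM scaling (factors 0.998 to 1.002). P-values were adjusted by Benjamini-Hochberg over 14482 genes, with a threshold of 0.05. Standard errors and 95% intervals came from the fit, with 2 residual and 36.9 prior degrees of freedom. Log2 CPM used a prior count of 2. A floor of 3 reads was 0.143 to 0.174 CPM. The fit was tested on simulated data. The simulation gave all genes and both groups the same dispersion, so it does not cover the uneven spread between replicates in these libraries.

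The 10 members and all lists were chosen with earlier results of these data known. Of 5 related lists the text names the 2 most abundant tested genes and the highest and lowest log2 fold change, a part of a rule that took the 4 most abundant. The rule also took all 6p24 neighbours, of which the text names BMP6, EEF1E1 and those too low to be tested and gives the others by counts; cell type markers are given by counts and examples. Exon sharing was counted over both strands. Nothing in the labels says that replicates were separate cultures, so the spread behind each p-value is that between these samples and may be technical. Every pair of libraries differed by more than sampling noise, with a chi-square of 1.48 to 2.43 per gene between Hx1R8 and Vehicle libraries, 1.60 between the Hx1R8 libraries and 2.95, the highest, between the Vehicle libraries. Alternatives were median-ratio factors, library totals, DESeq2 1.42.0, no filter, at least 1 CPM in 2 libraries, voom of limma 3.58.1, the replicate block, each library left out, and TXNDC5 summed with its read-through gene.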

Additional observations from a re-analysis of the deposited data

How the results depend on the processing

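The log2 fold change of TXNDC5, a description of the values it was chosen by, was 1.597 to 1.89 over 12 alternatives, and its excess over the median of the 9 other members was 1.61 to 1.90 with each library left out. The replicate numbers are shared by label only, and deviations of same-numbered libraries correlated at 0.03 across genes; with the replicate block TXNDC5 was at 1.75, and 2 genes were higher and 1 lower, as without it. DESeq2 called 1 gene higher, and the cause was not tested. With each library left out, where the remaining single library is taken to vary as the other group does, 2 to 41 genes were higher and 1 to 38 lower, with the most calls without Vehicle replicate 1 and then without Vehicle replicate 2 (13 higher, 18 lower). It gave 0 to 1 of the 9 other members (TMX1) and 0 to 2 related genes past the threshold: SELENON (-0.20) and PRDX1 (0.20) without Vehicle replicate 1, and GLRX5 (0.25) without Vehicle replicate 2. With 1 library left out signs turned, with no call, for P4HB (-0.10 to 0.013), PDIA5 (-0.075 to 0.054), DNAJC10 (-0.085 to 0.11), PDIA2 (-0.0025 to 2.27), QSOX2 (-0.062 to 0.053), QSOX1 (-0.12 to 0.039), GANAB (-0.077 to 0.062), CNPY4 (-0.20 to 0.0079), DERL3 (-0.032 to 1.22), EDEM2 (-0.92 to 0.33) and TXNRD1 (-0.018 to 0.026). SELENON (-0.20 to 0.014) and PRDX1 (-0.0094 to 0.20) turned sign and were called at the far end. Of 442 recomputed values of 37 genes, 15 changed sign and 4 gained a call. Summing TXNDC5 with BLOC1S5-TXNDC5 gave 1.77. With 44 to 205 reads on 540 bases, TXNDC5 is measured less closely than the other 9, and reads on its shared exons were not analysed here.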
